A study of Mus musculus with 6 samples.

Results

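The genes examined here are the 10 core genes of transforming growth factor beta (TGF-beta) supply and reception in mouse embryonic fibroblasts (MEFs), taken by symbol from the 29955 genes of the deposited expression table. They are the 3 ligands Tgfb1, Tgfb2 and Tgfb3, the 3 receptors Tgfbr1, Tgfbr2 and Tgfbr3, and the 4 latent TGF-beta binding proteins Ltbp1, Ltbp2, Ltbp3 and Ltbp4. All 10 were present and all 10 passed the filter on low values. RNA-seq was available from 3 Rnf40+/+ and 3 Rnf40-/- MEF libraries at passage 3, and the question was how the levels of these genes differed between the genotypes. RNF40 is a subunit of the ubiquitin ligase that places a single ubiquitin on histone H2B (H2Bub1), a mark of transcribed gene bodies. The MEFs came from embryos in which exons 3 and 4 of Rnf40 were flanked by loxP sites and which carried Rosa26-CreERT2, a tamoxifen-inducible Cre recombinase expressed in all cell types. Rnf40-/- MEFs were obtained with 250 nM 4-hydroxytamoxifen (4-OHT) for 5 days, followed by 3 days without it. Whether the Rnf40+/+ libraries came from cells given 4-OHT is not given in the sources used here, so the deletion and the treatment cannot be told apart. The labels do not say that the cultures of a genotype came from separate embryos, and p-values measure only the spread between these libraries, which may be technical.

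TGF-beta is made as a precursor whose propeptide stays wrapped around the mature dimer and keeps it latent. In most cells the propeptide is bound by a latent TGF-beta binding protein, which is needed for efficient secretion and anchors the complex to fibrillin and fibronectin in the extracellular matrix, from which integrins or proteases release the active ligand. Active TGF-beta binds the type II receptor (Tgfbr2), which recruits and phosphorylates the type I receptor (Tgfbr1), which in turn phosphorylates SMAD2 and SMAD3, while the type III receptor (Tgfbr3, betaglycan) is a co-receptor that presents ligand. In fibroblasts the pathway is best known for driving matrix production and the contractile myofibroblast state.

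The libraries held between 17053436 and 26344170 reads on genes, and values are given as normalized counts, which are reads divided by the size factor of the library. Rnf40 itself had 1278, 1195 and 1096 normalized counts in Rnf40+/+ and 439, 519 and 487 in Rnf40-/- libraries, 40.5% of the Rnf40+/+ mean, and the count of the whole gene includes exons outside the deleted part. All 11 fibroblast markers examined were detected in every library and all 11 were lower in Rnf40-/- MEFs (summed range 385019 to 438373 in Rnf40+/+ and 204626 to 220133 in Rnf40-/-). Lower and higher refer to the test described below (limma, adjusted p under 0.05). By that rule 24.1% of all genes tested were lower and 23.3% higher. Smooth muscle markers were lower for 6 of 6 genes (106507 to 120170 against 19845 to 24119). Of 10 macrophage markers tested, 2 were higher and 3 lower (summed range 5845 to 9976 against 3821 to 4223), near the shares of all genes tested. Rnf40+/+ replicate 3 had the most Lyz2 (7440.3 normalized counts, against at most 4557 in any other library). It also had the most Cd68, Csf1r, Aif1, Fcgr3, Tyrobp and Mrc1. In contrast, Itgam was highest in Rnf40+/+ replicate 1, and Ptprc, Cd14 and Emr1 were highest in Rnf40-/- libraries. Rnf40+/+ replicate 1 stood apart in Actc1, a striated muscle actin, with 937 normalized counts against at most 10.2 elsewhere, and in the Y-linked Ddx3y, with 81.2 against at most 7.14. Endothelial markers were low (summed range 147 to 282 against 234 to 333), with 3 of 5 tested higher, 1 lower and Cldn5 below 1 normalized count in every library. Of the epithelial (40.8 to 109.9 against 59.5 to 83.6), skeletal muscle (85.4 to 1009 against 167 to 182) and neural markers (1391 to 2792 against 1432 to 1625), 4, 1 and 4 could be tested and 1 of each was higher. Among these higher genes, endothelial Pecam1 and Cdh5, epithelial Cldn4 and neural S100b passed the filter on low values only through their Rnf40-/- libraries. Their calls are therefore no independent support. The defining genes Epcam, Cdh1, Myog and Gfap stayed below 10 normalized counts, and Myod1 was at 0 in every library. The part of these marker differences in the results below was not tested. In such bulk samples, fewer cells of a type and less RNA per cell cannot be told apart.

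Of the 10 genes, 6 were lower and 1 was higher in Rnf40-/- MEFs (limma with Benjamini-Hochberg adjustment over 16378 genes, adjusted p under 0.05). Over all genes tested, 24.1% were lower and 23.3% higher by the same rule. All 3 ligands and 3 of the 4 Ltbp genes were downregulated, whereas none of the 3 receptors was downregulated and Tgfbr2 was upregulated. Their log2 fold changes had a median of -0.33, against -0.0035 for all genes tested. Without Rnf40+/+ replicate 1, 5 genes were lower, and without Rnf40+/+ replicate 3, 6 were, and Tgfbr2 stayed the 1 higher gene in both. Libraries of the genotypes did not overlap for 7 genes with lower values (28.7% of all genes tested) and 2 with higher values (27.8%), leaving Tgfbr3 as the 1 gene with overlapping libraries. With a mean above 15 normalized counts, an unadjusted p under 0.05 and a fall of more than 1 on the log2 scale, a rule met by 5.70% of the genes tested, Ltbp1 alone qualified, and no gene of the 10 met the rule for a rise of more than 1.

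**Figure D1:**
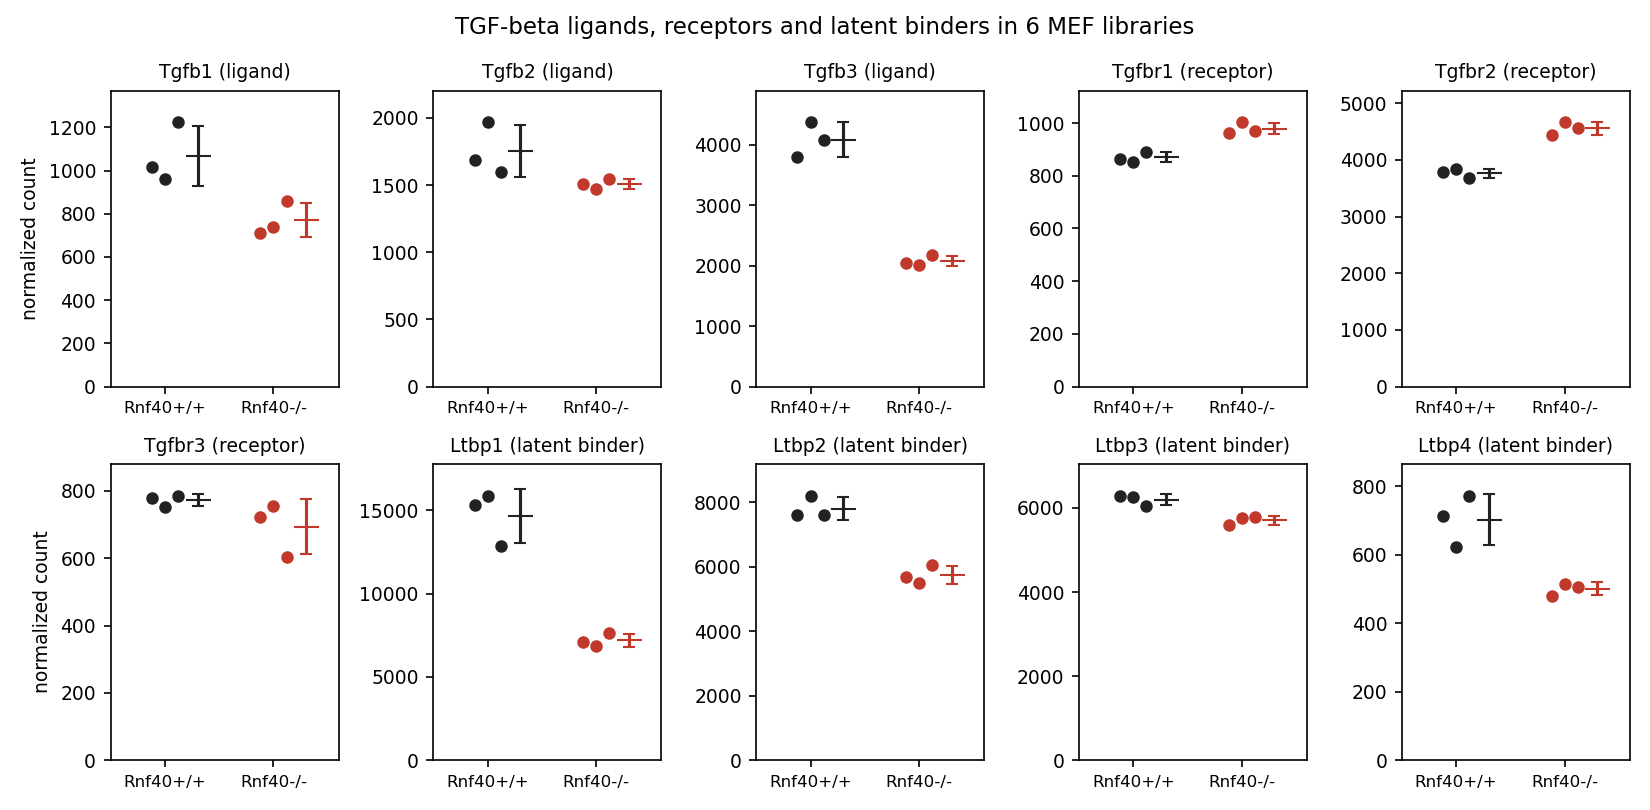
Normalized counts of the 10 genes in each library, 1 panel per gene, with Rnf40+/+ and Rnf40-/- libraries as points and the mean ± SD of 3 libraries as bars. Ltbp1 and Tgfb3 show the widest gap between genotypes, while the points of Tgfbr3 overlap.

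Tgfb3, the ligand with the highest level per length of transcript in these cells, showed the largest decrease of the ligands. It lies on the minus strand of chromosome 12 (chr12:87397694-87419991, mm9, ENSMUSG00000021253). Normalized counts were 3794, 4372 and 4084 in Rnf40+/+ and 2044, 2013 and 2178 in Rnf40-/- libraries. Every Rnf40-/- library was far below every Rnf40+/+ library. The mean went from 4083 ± 289 to 2079 ± 87.7 (SD, n = 3), with a log2 fold change of -0.97 ± 0.07 (SE, limma, adjusted p = 6.02e-07), so that 50.9% of the Rnf40+/+ level remained. With any 1 library left out, the log2 fold change stayed between -1.02 and -0.92.

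Tgfb1, the ligand most often studied in fibrosis and immune control, was also lower. The gene lies on the plus strand of chromosome 7 (chr7:26472021-26490096, mm9, ENSMUSG00000002603). It had 1017, 959.6 and 1223 normalized counts in Rnf40+/+ and 711, 739.9 and 858 in Rnf40-/- libraries. The groups did not overlap. The highest value was that of Rnf40+/+ replicate 3, which also had the highest values of most, but not all, macrophage markers examined. The means were 1067 ± 139 and 769.6 ± 78.1 (SD, n = 3), with a log2 fold change of -0.47 ± 0.10 (SE, limma, adjusted p = 0.00275). Without Rnf40+/+ replicate 3 the log2 fold change was -0.36 (limma, adjusted p = 0.00475).

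Tgfb2, the third ligand, showed the smallest difference of the ligands. It lies on the minus strand of chromosome 1 (chr1:188447065-188529871, mm9, ENSMUSG00000039239). Normalized counts were 1689.8, 1968 and 1596 in Rnf40+/+ and 1506, 1468 and 1544 in Rnf40-/- libraries. The groups were apart by a narrow margin, between Rnf40+/+ replicate 3 and Rnf40-/- replicate 3. The log2 fold change of -0.21 ± 0.08 (SE, limma) had a 95% confidence interval from -0.39 to -0.035 and an adjusted p of 0.0483. The call was lost without Rnf40+/+ replicate 1 (limma, adjusted p = 0.0510), Rnf40+/+ replicate 2 (log2 fold change -0.13, adjusted p = 0.173) or any of the Rnf40-/- libraries (adjusted p from 0.0803 to 0.142), and it was also lost with upper-quartile scaling (-0.16, adjusted p = 0.116).

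The promoters of Tgfb1 and Tgfb2 are shown because these ligands, which were both lower, have promoters of contrasting kinds. Both windows are the 250 bases before the RefSeq start on GRCm38.p6, read 5′ to 3′ on the strand of the gene, Tgfb1 at chr7:25686752-25687001 (plus strand) and Tgfb2 at chr1:186705990-186706239 (minus strand). In the Tgfb1 window, capitals mark matches on either strand to GGGCGG, the GC box that is bound by factors of the Sp1 family. In the Tgfb2 window, they mark a match to TATAAA, the TATA box.
Tgfb1: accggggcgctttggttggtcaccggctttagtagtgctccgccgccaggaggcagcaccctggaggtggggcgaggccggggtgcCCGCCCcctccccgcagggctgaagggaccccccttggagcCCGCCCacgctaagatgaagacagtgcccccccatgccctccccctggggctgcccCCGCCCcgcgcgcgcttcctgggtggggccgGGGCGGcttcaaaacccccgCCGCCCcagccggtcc
Tgfb2: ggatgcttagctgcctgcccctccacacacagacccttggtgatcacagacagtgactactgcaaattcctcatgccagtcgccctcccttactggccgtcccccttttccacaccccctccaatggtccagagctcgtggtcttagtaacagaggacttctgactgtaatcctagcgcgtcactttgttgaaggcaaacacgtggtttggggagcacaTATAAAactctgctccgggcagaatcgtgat
The Tgfb1 window had 75.2% G and C and held 5 GC boxes, with first bases between 16 and 164 bases before the start, and no TATAAA. The Tgfb2 window had 53.6% G and C, no GC box, and 1 TATAAA whose first base lay 31 bases before the start. Over all 32851 promoter windows of the RefSeq table the median was 52.4% G and C, and 32.7% of windows held a GC box and 12.4% a TATAAA on either strand.

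The make-up of the ligand RNA pool was compared next. Shares were computed from normalized counts per kb of the longest annotated transcript, since levels of different genes can only be compared per length. Tgfb3 made up 57.6%, 60.1% and 57.3% of the summed ligand level in Rnf40+/+ and 48.3%, 47.8% and 47.2% in Rnf40-/- libraries. The Tgfb2 share was 18.4%, 19.4% and 16.0% in Rnf40+/+ and 25.5%, 24.9% and 23.9% in Rnf40-/- libraries. Neither share overlapped between the genotypes, and the pool held relatively less Tgfb3 and relatively more Tgfb2 in Rnf40-/- MEFs. The Tgfb1 share had means of 23.8% ± 3.09 and 27.5% ± 1.39 (SD, n = 3), and its libraries overlapped. The differences of the means were -10.6 percentage points for Tgfb3, 6.87 for Tgfb2 and 3.70 for Tgfb1, the last falling to 2.09 without Rnf40+/+ replicate 2. These shares are a description with no test, and they sum to a whole, so that a lower share of 1 ligand raises the others.

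**Figure D2:**
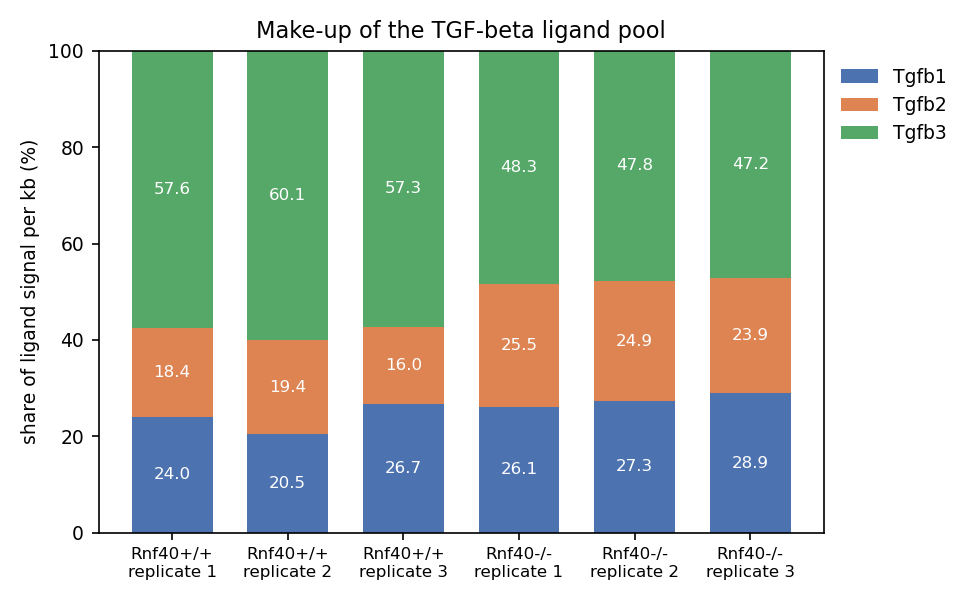
Share of Tgfb1, Tgfb2 and Tgfb3 in the summed ligand level (percent of normalized counts per kb of transcript) in each of the 3 Rnf40+/+ and 3 Rnf40-/- libraries. The Tgfb3 share is between 57.3% and 60.1% in Rnf40+/+ and between 47.2% and 48.3% in Rnf40-/- libraries.

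Among the receptors, Tgfbr2, the type II receptor that binds active ligand, was higher in Rnf40-/- MEFs. Normalized counts were 3785, 3835 and 3681 in Rnf40+/+ and 4445, 4665 and 4559 in Rnf40-/- libraries. Replicates of a genotype were close together and the groups did not overlap. The log2 fold change was 0.27 ± 0.06 (SE, limma, adjusted p = 0.00228), or 121% of the Rnf40+/+ mean. The gene lies on the minus strand of chromosome 9 (chr9:115993415-116084383, mm9, ENSMUSG00000032440). Its promoter window on GRCm38.p6 (chr9:116175364-116175613, minus strand) is shown as that of the 1 gene with the opposite direction. It has no capitals, as none of the motifs searched was found in it.
Tgfbr2: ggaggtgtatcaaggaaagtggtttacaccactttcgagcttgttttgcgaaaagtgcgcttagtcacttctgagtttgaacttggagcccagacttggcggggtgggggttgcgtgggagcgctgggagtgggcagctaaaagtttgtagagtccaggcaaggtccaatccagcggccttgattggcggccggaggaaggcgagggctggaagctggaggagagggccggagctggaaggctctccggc
The window had 58.4% G and C.

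Tgfbr1, the type I receptor kinase that phosphorylates SMAD2 and SMAD3, had 865, 854 and 890.4 normalized counts in Rnf40+/+ and 963, 1003 and 971 in Rnf40-/- libraries. Every Rnf40-/- library was above every Rnf40+/+ library, but the difference did not pass the threshold. The log2 fold change was 0.17 ± 0.07 (SE, limma, 95% confidence interval 0.02 to 0.32, adjusted p = 0.0599). It passed with the quasi-likelihood test of edgeR (adjusted p = 0.0470) and with upper-quartile scaling in limma (0.22, adjusted p = 0.0202). Tgfbr1 lies on the plus strand of chromosome 4 (chr4:47366094-47427803, mm9, ENSMUSG00000007613).

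Tgfbr3, the co-receptor betaglycan, had 779, 752 and 786 normalized counts in Rnf40+/+ and 724, 757 and 602 in Rnf40-/- libraries. Rnf40-/- replicate 2 lay within the Rnf40+/+ range, and Rnf40-/- replicate 3 was the lowest. The log2 fold change of -0.16 ± 0.09 (SE, limma, adjusted p = 0.181) had a 95% confidence interval from -0.36 to 0.04. The gene lies on the minus strand of chromosome 5 (chr5:107535589-107718648, mm9, ENSMUSG00000029287).

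Ltbp1, a main carrier of latent TGF-beta in the matrix, had the largest fold change of the 10 genes. Normalized counts were 15336, 15882 and 12837 in Rnf40+/+ and 7123, 6849 and 7619 in Rnf40-/- libraries. The lowest Rnf40+/+ value, in replicate 3, was still well above the highest Rnf40-/- value. The mean went from 14685 ± 1624 to 7197 ± 389.9 (SD, n = 3), 49.0% of the Rnf40+/+ level, with a log2 fold change of -1.02 ± 0.08 (SE, limma, adjusted p = 1.81e-06). Ltbp1 lies on the plus strand of chromosome 17 (chr17:75404908-75791852, mm9, ENSMUSG00000001870). It has 2 RefSeq starts, and the single row of the table sums what comes from both, so that a long and a short form cannot be told apart. The window before the upstream start (chr17:75005279-75005528, GRCm38.p6, plus strand) is shown with capitals on a match to TGACGTCA, the cAMP response element bound by CREB and ATF factors.
Ltbp1: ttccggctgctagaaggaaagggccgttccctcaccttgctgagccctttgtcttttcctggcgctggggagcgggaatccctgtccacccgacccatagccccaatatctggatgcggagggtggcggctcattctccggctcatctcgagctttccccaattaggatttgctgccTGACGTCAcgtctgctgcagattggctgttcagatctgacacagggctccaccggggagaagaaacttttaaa
The first base of the match lay 73 bases before the start. This element was found in 1.55% of all promoter windows and in 1 of the 12 windows of the 8 genes that had an entry, which were Tgfb1, Tgfb2, Tgfbr1, Tgfbr2 and Ltbp1 to Ltbp4. GC boxes were found in 6 of the 12 windows (Tgfb1, Tgfbr1, Ltbp2 and Ltbp4), against 32.7% of all windows. Several of these windows are of Ltbp4 and some of those overlap, so they are not independent. TGANTCA, the element of AP-1, and GTCTAGAC, a palindromic SMAD element, were in none of the 12 windows, against 6.75% and 0.167% of all windows. A match is a description of the letters in these windows only.

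Ltbp2, a family member that associates with fibrillin and does not bind latent TGF-beta, and Ltbp4, which binds TGF-beta1 weakly and supports elastic fibre assembly, were both lower. Ltbp2 had 7620.4, 8208 and 7596 normalized counts in Rnf40+/+ and 5687, 5510.4 and 6049 in Rnf40-/- libraries, without overlap. Its log2 fold change was -0.44 ± 0.07 (SE, limma, adjusted p = 0.000162). Ltbp4 had 713, 623 and 772 normalized counts in Rnf40+/+ and 480.3, 516 and 507 in Rnf40-/- libraries, again without overlap. Its log2 fold change was -0.48 ± 0.09 (SE, limma, adjusted p = 0.00119). Thus 73.6% of the Ltbp2 level and 71.3% of the Ltbp4 level remained, close to the 72.1% of Tgfb1. Ltbp2 lies at chr12:86124162-86217482 (minus strand, ENSMUSG00000002020) and Ltbp4 at chr7:28090155-28122711 (minus strand, ENSMUSG00000040488) of mm9.

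Ltbp3, which like Ltbp1 binds all 3 latent ligands, showed little difference. Normalized counts were 6291, 6260.3 and 6039 in Rnf40+/+ and 5588, 5755 and 5789 in Rnf40-/- libraries. Every Rnf40-/- library was lower, but the means of 6197 ± 138 and 5710.4 ± 108 (SD, n = 3) were close. The log2 fold change of -0.12 ± 0.06 (SE, limma, 95% confidence interval -0.25 to 0.01, adjusted p = 0.119) did not pass the threshold. Ltbp3 lies on the plus strand of chromosome 19 (chr19:5740904-5758532, mm9, ENSMUSG00000024940). The annotation of Ltbp2 overlaps D030025P21Rik on the opposite strand over 764 bases. The library kit kept strand, but whether the counting used it is not given in the sources used here.

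**Figure D3:**
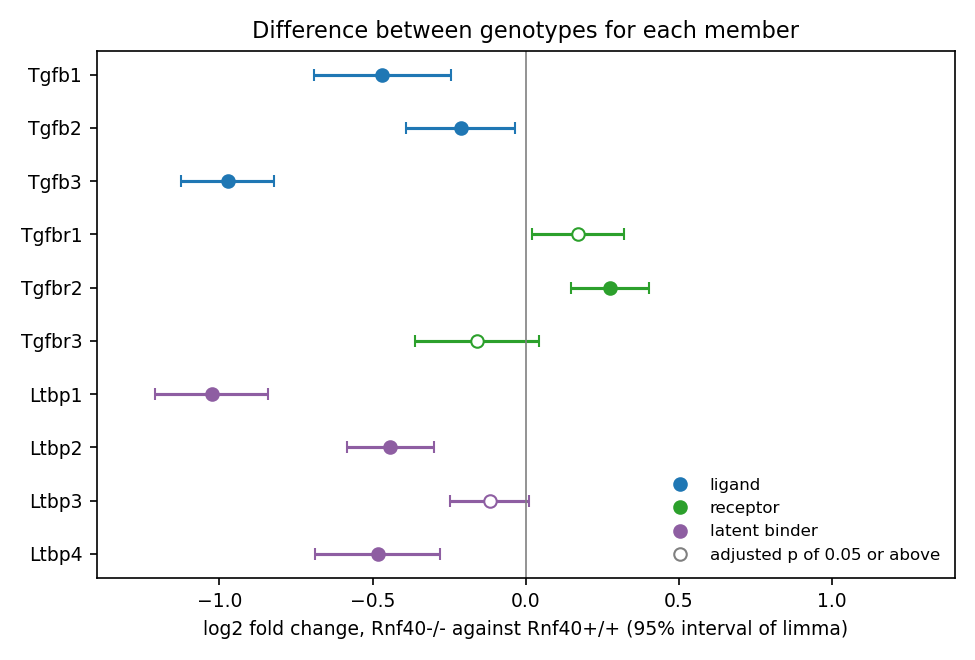
Log2 fold change (Rnf40-/- against Rnf40+/+) of each of the 10 genes, grouped by role, with points for the limma estimate (filled where the adjusted p is under 0.05) and bars for its 95% confidence interval. Ltbp1 at -1.02 and Tgfb3 at -0.97 lie farthest from 0, Tgfbr2 at 0.27 lies on the other side, and the intervals of Tgfbr3 and Ltbp3 include 0.

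Per kb of transcript, the order of the 10 genes also changed at the top. In Rnf40+/+ MEFs Ltbp1 stood first at 2201 ± 243 normalized counts per kb (SD, n = 3), and its libraries did not overlap those of the next gene. It was followed by Tgfb3 (1207 ± 85.3), Ltbp3 (1194 ± 26.5) and Ltbp2 (1154 ± 51.2), whose neighbours in this order overlapped. Next came Tgfb1 (490.5 ± 63.7) and Tgfbr2 (466 ± 9.75), which overlapped each other, and then Tgfb2 (371 ± 40.9) and Tgfbr1 (151 ± 3.29). Ltbp4 (130.5 ± 13.9) and Tgfbr3 (127 ± 2.97) were the lowest and overlapped.

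In Rnf40-/- MEFs Ltbp3 (1100.3 ± 20.7 normalized counts per kb) and Ltbp1 (1079 ± 58.4) shared the top of the order with overlapping libraries. Tgfb3, at 614 ± 25.9, fell below Ltbp2 (849 ± 40.5), and Tgfbr2 (563 ± 13.6) now stood above Tgfb1 (354 ± 35.9) without overlap. Tgfb2 (319 ± 7.97), Tgfbr1 (170.03 ± 3.71), Tgfbr3 (114 ± 13.4) and Ltbp4 (93.0 ± 3.42) followed, and none of the neighbours from Ltbp1 down overlapped.

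**Figure D4:**
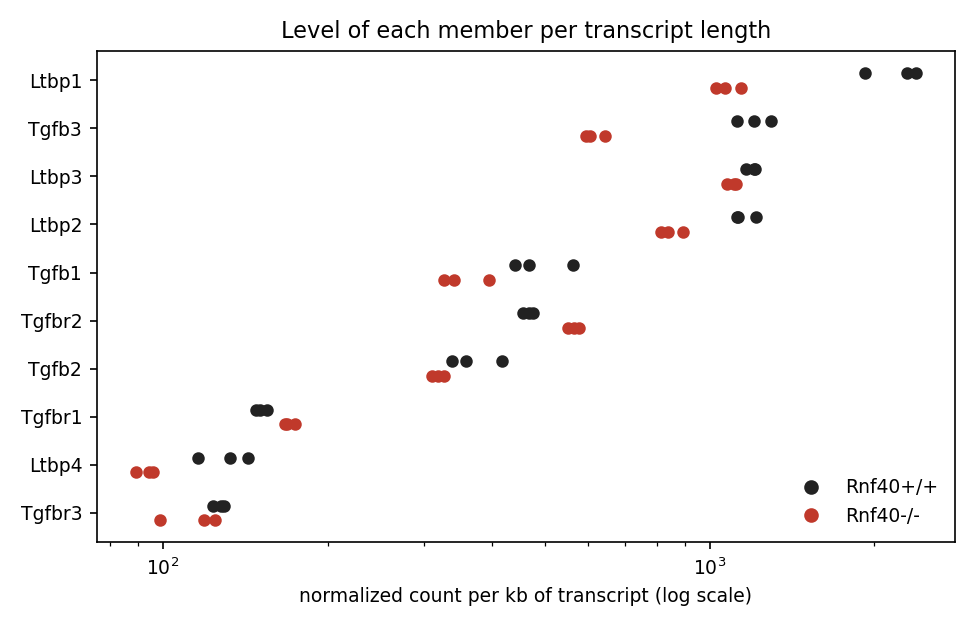
Levels of the 10 genes in normalized counts per kb of transcript (log axis), with 1 point per library for the 3 Rnf40+/+ and 3 Rnf40-/- libraries. Ltbp1 is first, with a mean of 2201, in Rnf40+/+ and overlaps Ltbp3 in Rnf40-/- MEFs.

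Summed by role, the ligand level was 1947, 2149.6 and 2107 normalized counts per kb in Rnf40+/+ and 1249.6, 1246 and 1365 in Rnf40-/- libraries, which left 62.2%. The summed level of the 4 Ltbp genes, with Ltbp2 included although it does not bind latent TGF-beta, went from 4679 ± 292 to 3121 ± 108 normalized counts per kb (SD, n = 3), which left 66.7%. The summed receptor level was 744 ± 4.13 in Rnf40+/+ and 847 ± 24.3 in Rnf40-/- libraries, or 114%. These sums are a description with no test.

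The wider pathway was read from lists of genes around the core. The first holds proteins that anchor or activate the latent complex. Of its 19 genes tested, 12 were lower (63.2%, against 24.1% of all genes tested) and 2 higher (10.5%, against 23.3%), with a median log2 fold change of -0.52. The 4 largest changes included Lrrc32 (GARP), which tethers latent TGF-beta to the cell surface, with 3099 ± 152 normalized counts in Rnf40+/+ and 683 ± 33.7 in Rnf40-/- libraries (SD, n = 3), a log2 fold change of -2.18 (limma, adjusted p = 2.45e-09). Tgm2, a transglutaminase that cross-links binding proteins to the matrix, went from 568 ± 64.1 to 181 ± 40.1 normalized counts (log2 fold change -1.66). Mmp9, a protease that can release TGF-beta, was low and went from 89.5 ± 44.3 to 16.3 ± 10.9 (-2.52). In the other direction, Itgb6, the partner of integrin alpha v in an activating receptor, had 6.56 ± 0.544 normalized counts in Rnf40+/+ and 42.9 ± 8.92 in Rnf40-/- libraries (2.52). Itgb6 passed the filter on low values only through its Rnf40-/- libraries, so its call is no independent support, and it was no longer tested when at least 10 reads were required in every library. The second higher gene was Plau (log2 fold change 0.53), and Itgb8 had too few reads to be tested.

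Among 17 accessory receptors and receptor regulators, 8 were higher (47.1%, against 23.3% of all genes tested) and 5 lower (29.4%, near the 24.1% of all genes tested), and the median log2 fold change was 0.22. Tgfbrap1, which binds the receptor complex and SMAD4, was the most increased, from 769 ± 12.05 to 1517 ± 111 normalized counts (SD, n = 3, log2 fold change 0.98, limma, adjusted p = 9.25e-07). Usp11, a deubiquitinase that stabilizes the type I receptor, went from 158 ± 46.5 to 42.5 ± 4.22 (-1.82). Fkbp1a (FKBP12), which holds the type I receptor inactive, went from 8939 ± 560.2 to 4973 ± 356 (-0.85), and Bambi, a decoy receptor, from 266 ± 21.3 to 150.1 ± 9.08 (-0.82).

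Of 13 SMADs and nuclear partners, 7 were higher (53.8%, against 23.3% of all genes tested) and 2 lower (15.4%, against 24.1%), with a median log2 fold change of 0.30. Smad4, the shared partner of receptor-activated SMADs, rose from 1361 ± 76.5 to 2172 ± 99.8 normalized counts (SD, n = 3, log2 fold change 0.67, limma, adjusted p = 1.0e-05). Smad3 rose by 0.44 on the log2 scale (limma, adjusted p = 0.000146), whereas Smad2 had a log2 fold change of 0.11 (adjusted p = 0.303). The inhibitory Smad6 rose by 0.61, and the inhibitory Smad7 had a log2 fold change of 0.15 (limma, adjusted p = 0.125). The related co-repressors Ski and Skil went opposite ways, Ski from 4135 ± 137 to 6976 ± 109.8 normalized counts (0.75) and Skil from 1041 ± 80.6 to 609 ± 33.2 (-0.77).

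Of 31 genes known to be induced by TGF-beta, 20 were lower (64.5%, against 24.1% of all genes tested) and 3 higher (9.68%, against 23.3%). The median log2 fold change was -0.66. The 4 largest decreases were in Postn and in the contractile genes Cnn1 (4423 ± 514 to 276 ± 11.7 normalized counts, SD, n = 3, log2 fold change -3.99), Tagln (47935 ± 2929.7 to 5587 ± 462, -3.10) and Acta2 (104533 ± 6079.5 to 20661 ± 2093, -2.34). Postn, a matrix protein, went from 25672 ± 5140.1 to 4497 ± 288 (-2.50). Ctgf, the gene of connective tissue growth factor and a standard readout of the pathway, had 37014 ± 4053 normalized counts in Rnf40+/+ and 35995 ± 816 in Rnf40-/- libraries (log2 fold change -0.03, limma, adjusted p = 0.772). The 3 higher genes were Junb, Plod2 and Nox4, with log2 fold changes of 0.67, 0.43 and 0.34. Col1a1, Col1a2 and Col3a1 of this list are also fibroblast markers, and Acta2 and Cnn1 are also smooth muscle markers, so this count and the marker counts are not independent. Pmepa1, Skil and Smad7 are also each in another list of the pathway.

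The activin and nodal branch is the sister pathway that also signals through SMAD2 and SMAD3. Of its 14 genes tested, 7 were lower and 1 higher (median log2 fold change -0.39). By the same rule 24.1% of all genes tested were lower and 23.3% higher, and their median log2 fold change was -0.0035. Inhba, the activin A subunit, went from 1037 ± 99.97 to 517 ± 68.3 normalized counts (SD, n = 3, log2 fold change -1.01, limma, adjusted p = 1.4e-05). Mstn (myostatin, -2.11) and Gdf1 (-1.41) were lower at low levels. They had 50.3 and 35.6 normalized counts in Rnf40+/+ and 10.7 and 12.7 in Rnf40-/- MEFs. Whether they passed the filter on low values only through their Rnf40+/+ libraries was not examined. With at least 10 reads required in every library, 6 genes of the branch were lower. Gdf15, a distant member of the family, was the higher gene, from 62.0 ± 22.4 to 139 ± 4.78 (1.21). Nodal, Acvr1c and Acvr2b had too few reads to be tested.

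**Figure D5:**
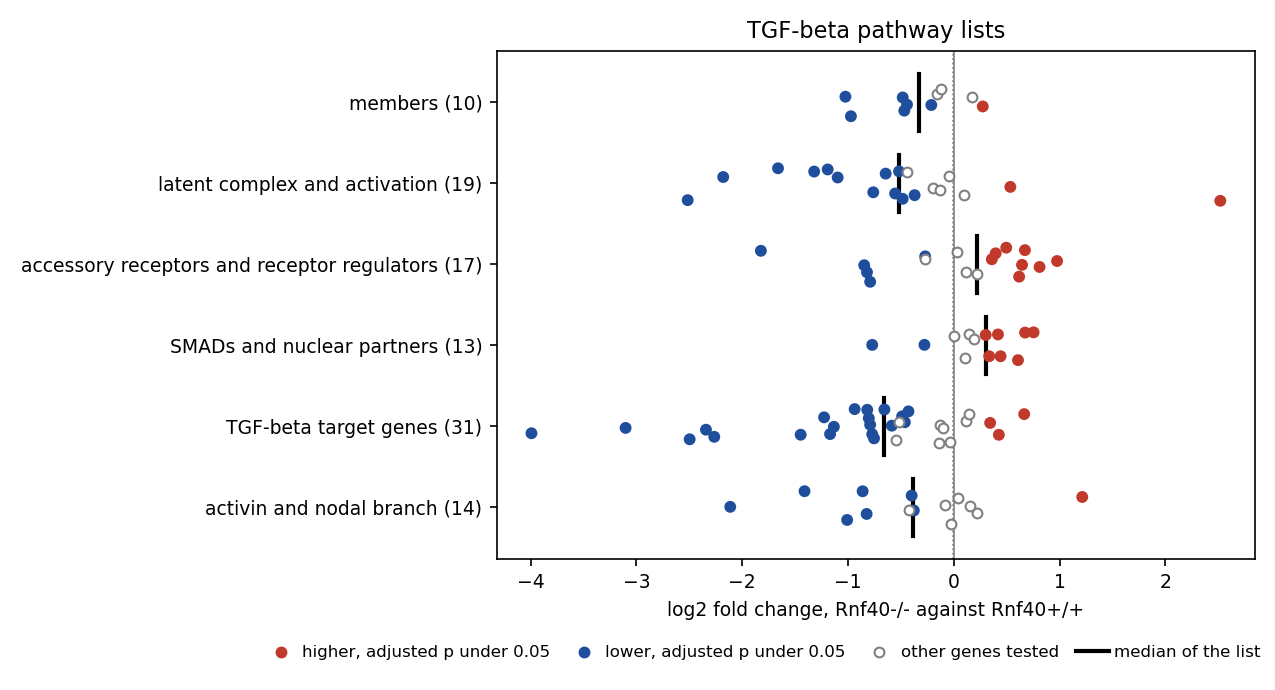
Log2 fold change (Rnf40-/- against Rnf40+/+) of each tested gene in the lists of the pathway, with the 10 core genes in the top row (members), filled points for genes with an adjusted p under 0.05, open points for other genes tested, and a black line at each median. The medians are -0.52 for the latent complex, 0.22 for accessory receptors, 0.30 for SMADs, -0.66 for target genes and -0.39 for the activin and nodal branch.

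Genes whose levels followed those of a ligand most closely over the 6 libraries were found by Pearson's r of log2(normalized count + 1), as a description with no test. The 6 points are 2 groups of 3 libraries. A gene with a difference between genotypes in the same direction, clear of its spread, can score high by that alone. The size of the difference does not enter r. For Tgfb3 these were Fdxr, Zwint and Bcat1 (r = 0.999 for each), and 1606 genes had an r above 0.95. For Tgfb2 they were Sspn (0.998), Cpz (0.997) and Npr3 (0.995), with 84 genes above 0.95. For Tgfb1 they were Ccdc32 (0.995), Pkdcc (0.994) and Lgmn (0.994), with 270 genes above 0.95.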

How the data were processed

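RNA-seq of 3 Rnf40+/+ and 3 Rnf40-/- MEF libraries was used, as labelled. The authors mapped strand-specific reads to the mm9 transcriptome and deposited DESeq-normalized counts per gene, a signal equal to reads divided by 1 size factor per library (Bowtie2 version 2.1.0 and DESeq version 1.14.0 stand in the submitters' processing notes). In every library 100% of values were whole reads within a tolerance of 0.01 once multiplied back, and those reads were recovered. Depth ranged from 17053436 to 26344170 reads on genes, and 3 reads, taken as the floor, were 2.40 to 3.58 normalized counts. This floor covers counting error only.

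Low genes were removed by filterByExpr (edgeR version 4.0.16) using the recovered reads, and log2(normalized count + 1) was tested with limma (version 3.58.1, trend, two-sided, genotype as the only term) with Benjamini-Hochberg adjustment. A fold change on this scale understates the change of low genes. No pair of libraries was a duplicate: chi-square per gene was 5.31 to 28.3 within and 74.7 to 117 between genotypes. Alternatives were other pseudocounts (0.1 and 10), filters and scalings, edgeR, DESeq2 (version 1.42.0), a replicate block and each library left out. The code was tested on simulated data. Gene positions are from GENCODE M1 (mm9), and promoter windows from RefSeq (GRCm38.p6), with which 8 of the 10 genes matched. In addition to the 10 genes, up to 4 genes with the largest change per list (adjusted p under 0.05, mean above 15), Smad2, Smad3, Smad4, Smad7 and Ctgf (Ccn2), and the 3 genes most like each ligand were named, and some results under this rule are not reported here. Plau, Junb, Plod2 and Nox4 were named after their values were seen. The genes and lists were chosen, from general knowledge, with earlier results of these data known.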

Additional observations from a re-analysis of the deposited data

How the results depend on the processing

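No log2 fold change of the 10 genes and no difference in ligand share was reversed under the alternatives run, and single genes of the other lists were not followed through them. With upper-quartile scaling or the quasi-likelihood test of edgeR, 2 of the 10 genes were higher, as Tgfbr1 then passed. With at least 10 reads in every library, 1 gene of the latent complex list was higher, since Itgb6 was not tested. Under the same filter, 6 genes of the activin and nodal branch were lower, against 7 in the main fit. With counts not divided by length, the difference in share of ligand RNA was 9.25 percentage points for Tgfb2 and 2.14 for Tgfb1. Leaving out 1 library gave 5 to 6 lower genes and 1 higher gene of the 10, differences in share of -11.1 to -9.68 (Tgfb3), 5.92 to 7.59 (Tgfb2) and 2.09 to 5.18 (Tgfb1) percentage points, and 19 to 21 lower target genes. The Tgfb2 call was lost under 8 of 15 alternatives, among them a pseudocount of 0.1 (adjusted p = 0.05001, limma) and no gene filter (0.0605, limma). Where 1 library was left out the group kept 2, and the cause of lost calls was not tested. Same-numbered libraries of the genotypes did not deviate together (r of 0.012, 0.017 and 0.021). Such small correlations cannot exclude that the numbers pair the cultures, and the labels do not say. With the replicate block, 1 gene of the 10 was higher and 6 lower. Over all genes the block gave 4021 higher and 4196 lower genes, against 3809 and 3955 without it. Each of the 10 genes had at least 471 reads in every library.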
